A study of Mus musculus with 5 samples.

Results

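The presynaptic vesicle release machinery was followed here as a set of 53 genes: the SNARE proteins and their regulators, priming and active zone scaffolds, proteins of the synaptic vesicle, and calcium sensors. The members were chosen by gene symbol from knowledge of their function, with earlier results of these data known. All 53 were among the 32531 genes listed. They were measured by translating ribosome affinity purification (TRAP), in which ribosomes carrying an EGFP tag are pulled down with an antibody so that RNA of the tagged cells is enriched. The dentate gyrus group held 3 libraries and the cerebral cortex group 2, all of them immunopurified fractions from untreated adult mice. Every mouse carried the Rbp4-Cre driver line KL100 and the Rosa26-LSL-EGFP/Rpl10a allele, so Rbp4-Cre decided which cells were tagged in either tissue. In cortex the line is known for labelling layer 5 pyramidal neurons. Nothing in the labels states that the libraries of a tissue are different mice, so the p-values cover only library-to-library spread, which may be technical. Input RNA and untagged mice were not analysed here.

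Synaptic vesicles fuse when a vesicle SNARE, synaptobrevin, zippers up with syntaxin and SNAP-25 on the plasma membrane. Munc13 and RIM proteins prime vesicles at the active zone, complexins hold and promote the assembled SNARE complex, and synaptotagmins trigger fusion when they bind calcium. Granule cells of the dentate gyrus release glutamate from the large mossy fibre terminals of the hippocampus, which are known for a low initial release probability and strong facilitation. Layer 5 pyramidal neurons of the cortex send their axons to other cortical areas and to subcortical targets.

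Reads assigned to genes numbered 36837908, 22600963 and 25670171 in the dentate gyrus libraries, against 34887421 and 23967356 in the cortex libraries. Levels are given as counts per 1000000 gene counts (CPM), with library sizes scaled by the trimmed mean of M values (TMM). Granule cells were checked by 12 markers, of which 11 were called higher in dentate gyrus. Prox1, their defining transcription factor, had 1141, 939.9 and 1089 CPM there, against 2.36 and 14.7 CPM in cortex. The remaining granule cell marker, Pdzrn3, was called lower, with 13.8, 16.7 and 20.3 CPM in dentate gyrus, against 179 and 185 CPM in cortex. Of 12 layer 5 markers 8 were lower and 2 higher in dentate gyrus. Their summed level was 703 to 838 CPM there, against 1608 to 1777 CPM in cortex. This sum includes the 2 higher markers, Bcl11b and Fam84b. Bcl11b had 370, 311 and 314 CPM in dentate gyrus, against 100.03 and 87.4 CPM in cortex. Fam84b had 84.9, 70.6 and 75.4 CPM in dentate gyrus, against 31.7 and 18.4 CPM in cortex. Pcp4, not called, had 188, 124 and 155 CPM in dentate gyrus, against 205 and 166 CPM in cortex. The sum is therefore no measure of the 8 lower markers. A pair of libraries stood apart from their group. Dentate gyrus replicate 2 held more RNA of several layer 5 markers than its companions: Fezf2 was at 1.82, 60.2 and 17.5 CPM in the dentate gyrus libraries, against 353 and 283 CPM in cortex. Cortex replicate 1 held 641 CPM of 12 cerebellar markers in sum, against 73.0 CPM in cortex replicate 2, led by Car8 at 411 and 1.43 CPM. Calls lost when either library was left out are given with each gene, and those lost without both are named near the end.

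The release machinery took 4.44%, 4.51% and 4.21% of gene counts in the dentate gyrus libraries, against 6.28% and 5.71% in the cortex libraries. Snap25 alone accounted for 1.89%, 2.06% and 1.79% in dentate gyrus, against 3.54% and 3.06% in cortex. The other 52 members together took 2.55%, 2.45% and 2.42% in dentate gyrus, against 2.74% and 2.66% in cortex. Dentate gyrus was below cortex in all 3 sums, most of all in that of Snap25.

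All 53 members passed the filter on low counts. The quasi-likelihood test of edgeR was run on 14136 genes, with p-values adjusted over all of them by the Benjamini-Hochberg method. In it, 12 members were higher in dentate gyrus, 24 were lower and 17 did not pass at an adjusted p under 0.05. The 36 calls make 67.9% of the members, where 21.3% of all genes tested were called. In single directions, 10.5% of all genes were called higher and 10.8% lower in dentate gyrus. The median member change was -0.57 on the log2 scale, dentate gyrus minus cortex, beside 0.02 over all genes tested. As the members were chosen with earlier results of these data known, these comparisons with all genes are no test of the set. The libraries of the tissues did not overlap for 47 of the 53 members, 14 with all dentate gyrus libraries higher and 33 with all of them lower, where 50.1% of all genes did not overlap. Among the calls, 8 members were at least 2-fold higher and 13 at least 2-fold lower in dentate gyrus. Under each of 15 alternative scalings, filters, tools and left-out libraries, 18 members kept their call: Stxbp6, Synpr, Doc2b, Cplx2, Syn3, Stxbp5 and Erc2 higher, and Stx1a, Sv2b, Rab3c, Cplx1, Vamp1, Rims2, Syt4, Syn1, Syt1, Syt11 and Snap25 lower. In bulk RNA such as this, fewer cells of a type and less RNA per cell cannot be told apart.

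**Figure D1:**
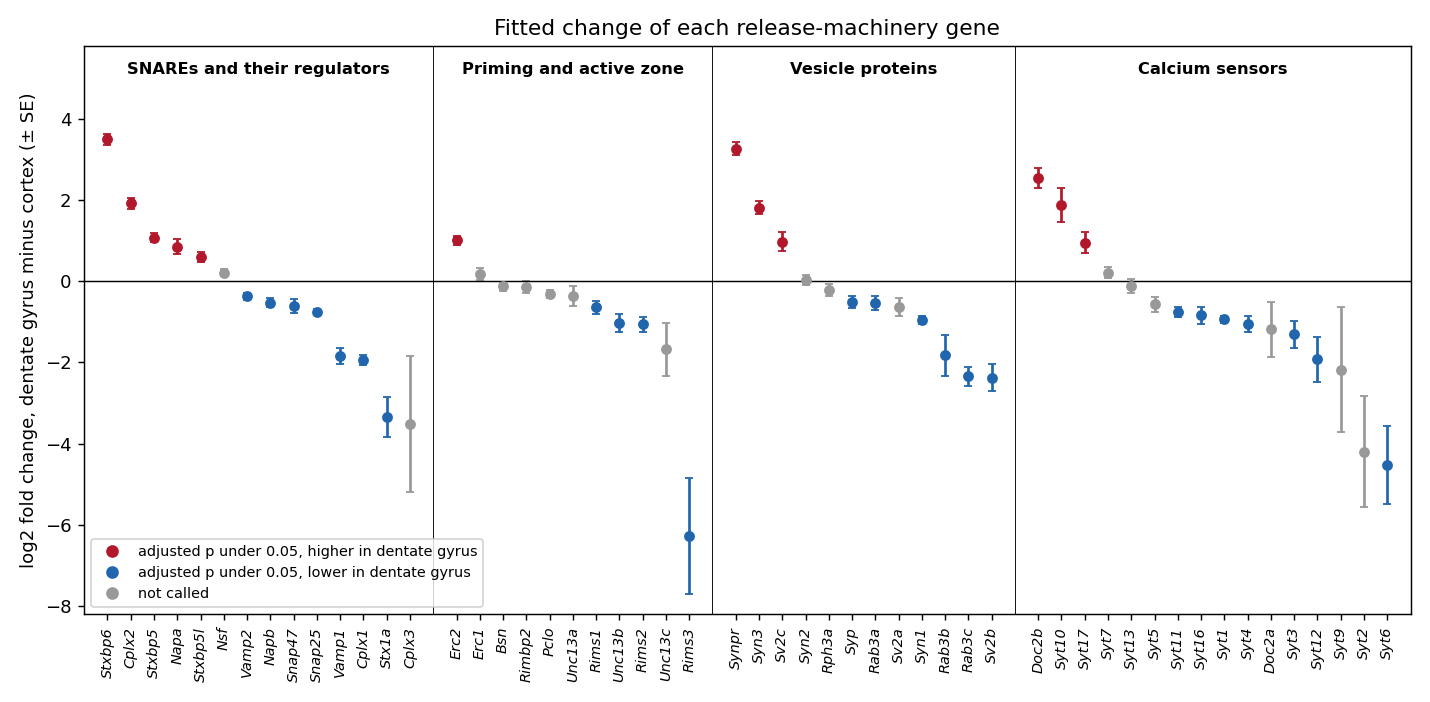
Fitted log2 fold change, dentate gyrus minus cortex, of the 53 genes in 4 functional groups (vertical axis; bars are ± 1 standard error). Red marks the 12 genes called higher and blue the 24 called lower in dentate gyrus, grey the 17 not called; each functional group held genes on both sides of 0.

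The 5 SNARE genes of the set were all called lower in dentate gyrus. Snap25, the plasma membrane SNARE that supplies a pair of helices to the complex, had 19212, 20710 and 17991 CPM in the dentate gyrus libraries, against 35192 and 30020 CPM in the cortex libraries. Every dentate gyrus library was below every cortex library. It changed by -0.76 ± 0.08 (log2, SE; adjusted p = 0.000131) and was the highest member per kilobase of exon in both tissues, with 2843 ± 201 CPM per kb in dentate gyrus and 4801 ± 539 in cortex (SD, n = 3 and n = 2). Stx1a, a plasma membrane syntaxin, had 8.94, 15.9 and 3.33 CPM in dentate gyrus, against 105 and 85.5 CPM in cortex. The dentate gyrus libraries spread widely but all lay far under those of cortex. The change was -3.34 ± 0.50 (adjusted p = 0.00113), and -3.96 without dentate gyrus replicate 2 (adjusted p = 0.000191).

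Both synaptobrevins were lower, by different amounts. Vamp1 had 32.9, 34.5 and 42.0 CPM in dentate gyrus, against 132 and 129.7 CPM in cortex, a change of -1.84 ± 0.19 (adjusted p = 0.000129). Vamp2, the main synaptobrevin of forebrain neurons, had 2948, 3359 and 2913 CPM in dentate gyrus, against 4192 and 3762 CPM in cortex. The smaller Vamp2 change of -0.37 ± 0.09 (adjusted p = 0.0161) was no longer called without cortex replicate 1 (adjusted p = 0.129) or without dentate gyrus replicate 3 (adjusted p = 0.0551). Snap47, a SNAP-25 relative without a membrane anchor, had 219, 154 and 216 CPM in dentate gyrus, against 308 and 288 CPM in cortex (-0.60 ± 0.17, adjusted p = 0.0311). Its call was lost without cortex replicate 1 (adjusted p = 0.153), cortex replicate 2 (0.0772) or dentate gyrus replicate 2 (0.0507). Of the exonic bases of Snap47, 11.6% overlap the antisense gene Jmjd4, whose reads cannot be told apart without a stated strand setting.

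The SNARE-binding inhibitors moved the other way. Stxbp6, or amisyn, binds syntaxin and SNAP-25 in place of synaptobrevin; its gene spans chr12:44852484-45074709 on the minus strand (GRCm38). It had 1814, 1611 and 1602 CPM in the dentate gyrus libraries, against 132 and 163 CPM in the cortex libraries. This was the largest rise of any member, 3.51 ± 0.14 (adjusted p = 9.47e-07), with no dentate gyrus library near a cortex library. Per kilobase, Stxbp6 stood 5th among the 53 members in dentate gyrus at 316 ± 22.7 CPM per kb, and 26th in cortex at 27.9 ± 4.08 (SD). The tomosyns, cytosolic proteins with a synaptobrevin-like motif that occupy syntaxin and SNAP-25, were also higher. Stxbp5 had 606, 604 and 648 CPM in dentate gyrus, against 294 and 292 CPM in cortex (1.08 ± 0.11, adjusted p = 0.000128). Stxbp5l had 758, 604 and 612 CPM in dentate gyrus, against 443 and 425 CPM in cortex (0.60 ± 0.13, adjusted p = 0.00914), and its call was lost without cortex replicate 2 (adjusted p = 0.0793). All 3 inhibitors were thus above cortex in each dentate gyrus library, while all 5 SNARE members were below.

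Complexins, small proteins that clamp and then assist the SNARE complex, changed in opposite directions. Cplx2 had 5211, 3868 and 3958 CPM in dentate gyrus, against 1096 and 1202 CPM in cortex (1.92 ± 0.14, adjusted p = 1.45e-05). Cplx1 had 251, 262 and 219 CPM in dentate gyrus, against 934 and 938 CPM in cortex (-1.94 ± 0.12, adjusted p = 5.67e-06). Neither gene overlapped between tissues. The ratio of Cplx2 to Cplx1 counts was 20.8, 14.8 and 18.1 in the dentate gyrus libraries, against 1.17 and 1.28 in the cortex libraries. Summed over the complexins, the level averaged 4590 ± 757 CPM in the dentate gyrus libraries and 2089 ± 76.5 CPM in the cortex libraries (SD), so the family as a whole was higher in each dentate gyrus library. Cplx3, known mainly from the retina and subplate neurons, had 0.938, 0 and 0 CPM in dentate gyrus, against 4.39 and 3.03 CPM in cortex. It was not called (adjusted p = 0.177). It passed in 3 of 15 alternatives, among them without dentate gyrus replicate 1 (adjusted p = 0.00715) and with limma voom.

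The bases before the starts of 4 genes are shown because each gene either changed with a paralogue moving the other way or, for Stx1a, had the largest fall among the SNARE genes. The sequences are from RefSeq on GRCm38.p6, 5′ to 3′ on the gene's strand, up to 250 bases before the RefSeq start, with any base inside the GENCODE M21 gene left out. They are Synpr (chr14:13284530-13284779, plus strand, 64% G or C), Stx1a (chr5:135023232-135023481, plus strand, 62%), Cplx1 (chr5:108550028-108550277, minus strand, 64.8%) and Syn1 (chrX:20921005-20921168, minus strand, 67.1%). Capitals mark the cAMP response element TGACGTCA, a palindrome that reads the same on both strands.
Synpr: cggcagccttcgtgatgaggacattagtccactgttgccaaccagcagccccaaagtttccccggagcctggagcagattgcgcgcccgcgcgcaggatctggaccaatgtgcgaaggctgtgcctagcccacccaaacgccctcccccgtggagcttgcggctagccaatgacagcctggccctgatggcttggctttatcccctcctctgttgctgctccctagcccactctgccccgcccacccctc
Stx1a: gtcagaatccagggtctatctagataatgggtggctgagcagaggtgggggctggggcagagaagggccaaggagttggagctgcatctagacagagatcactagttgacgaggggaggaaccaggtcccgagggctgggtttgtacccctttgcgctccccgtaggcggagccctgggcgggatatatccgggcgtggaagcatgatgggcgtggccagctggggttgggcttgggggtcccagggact
Cplx1: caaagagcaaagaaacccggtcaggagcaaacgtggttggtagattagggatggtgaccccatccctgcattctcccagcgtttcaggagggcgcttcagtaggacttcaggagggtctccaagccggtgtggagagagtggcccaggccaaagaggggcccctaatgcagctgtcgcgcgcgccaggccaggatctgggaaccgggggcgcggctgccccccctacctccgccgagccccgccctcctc
Syn1: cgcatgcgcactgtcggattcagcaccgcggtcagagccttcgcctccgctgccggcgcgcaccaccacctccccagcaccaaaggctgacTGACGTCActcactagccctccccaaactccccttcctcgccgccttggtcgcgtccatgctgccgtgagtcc
RefSeq lists 53 starts for 41 of the members. TGACGTCA was in 1 of these 53 windows of 250 bases (1.89%), that of Syn1, and in 508 of all 32851 windows (1.55%). The E-box CAGATG or its complement CATCTG was in the windows of 4 members (7.55%), Pclo, Rimbp2, Rims3 and Syn2, and in 14.4% of all windows. These matches describe letters in a window and no measured binding.

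The ATPase that takes SNARE complexes apart after fusion, Nsf, had 1747, 1657 and 1791 CPM in dentate gyrus, against 1556 and 1441 CPM in cortex, and was not called (0.21 ± 0.09, adjusted p = 0.131). Its adaptors changed in opposite directions. Napa, encoding alpha-SNAP, had 140.4, 104 and 127 CPM in dentate gyrus, against 67.4 and 69.7 CPM in cortex (0.85 ± 0.19, adjusted p = 0.0101). Napb, encoding the neuronal beta-SNAP, had 890.4, 1022 and 986 CPM in dentate gyrus, against 1485 and 1291 CPM in cortex (-0.52 ± 0.11, adjusted p = 0.00617). Without cortex replicate 1, neither passed (adjusted p = 0.0618 for Napa and 0.0632 for Napb), and Napa did not pass without cortex replicate 2 (0.0610). Napb remained the higher of the pair per kilobase in both tissues.

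**Figure D2:**
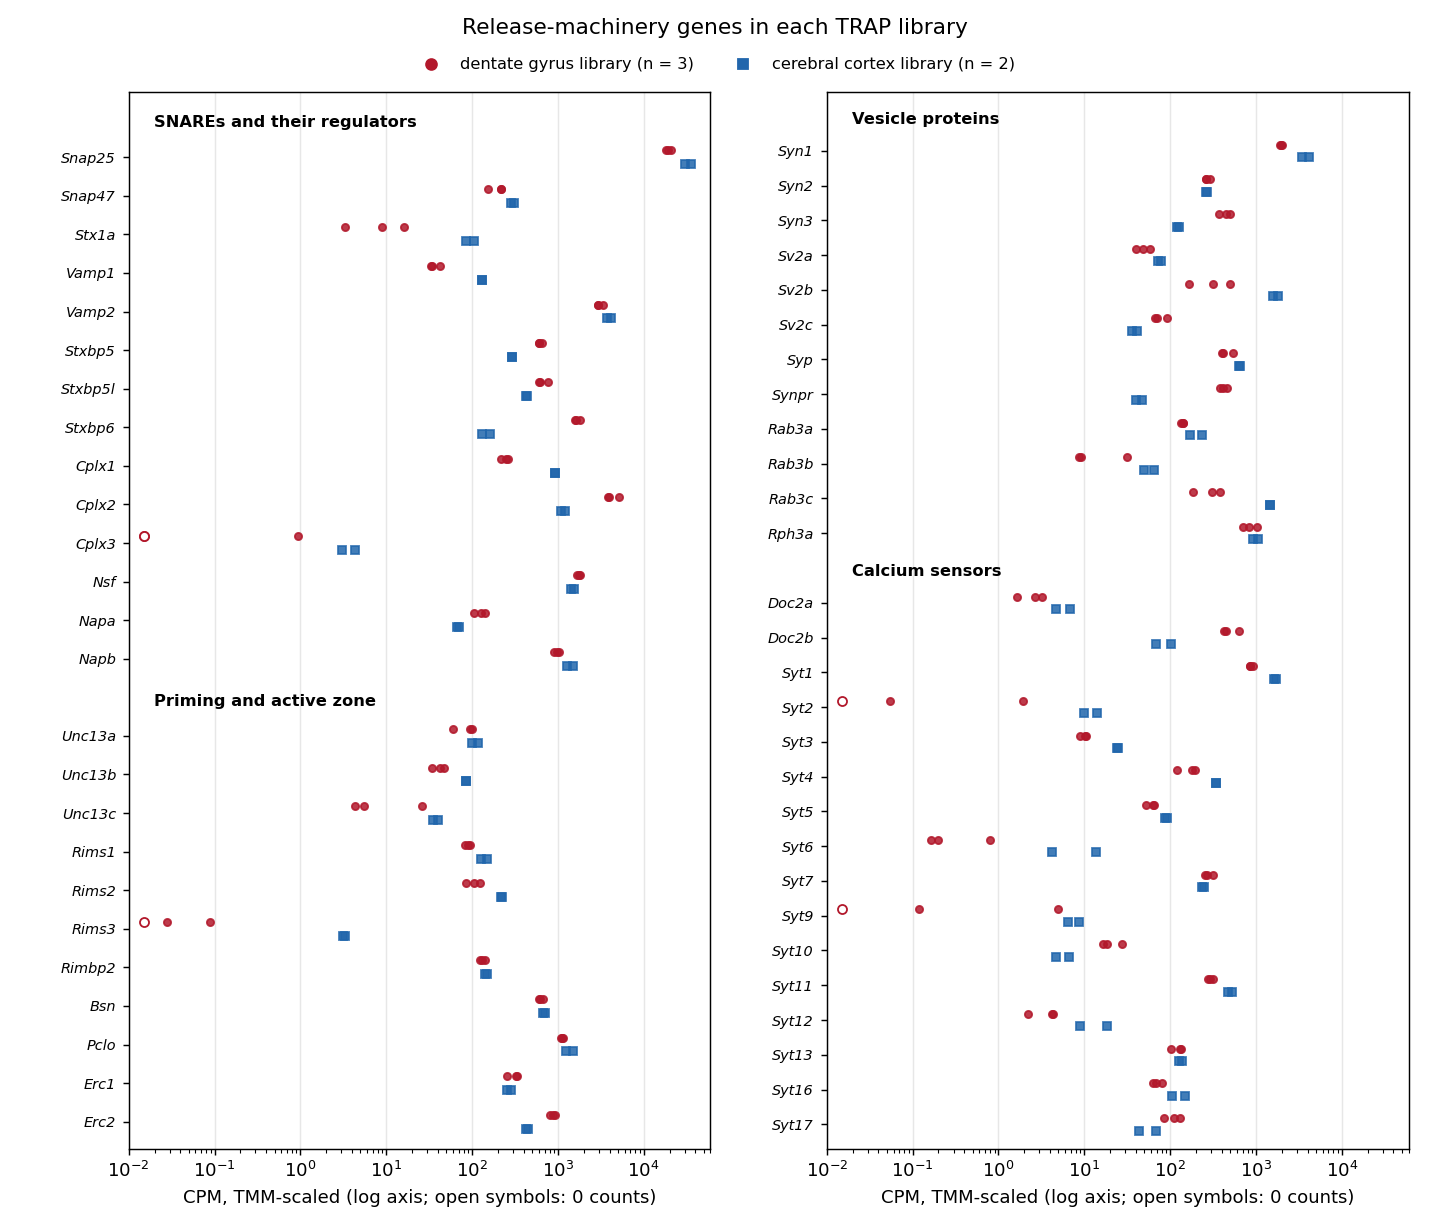
CPM (TMM-scaled, log axis) of each of the 53 genes in each library, in 4 functional groups; red circles are the 3 dentate gyrus libraries and blue squares the 2 cortex libraries, with open symbols for 0 counts. The libraries of the tissues do not overlap for 47 genes, and Stxbp6, Cplx2, Synpr and Doc2b stand clearly to the right of cortex.

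Of the members in priming and the active zone, Erc2 was called higher and the others were called lower or not called. Of the Munc13 genes, which open syntaxin to prime vesicles, only Unc13b passed, with 34.4, 47.4 and 42.4 CPM in dentate gyrus, against 84.2 and 84.3 CPM in cortex (-1.03 ± 0.21, adjusted p = 0.00725). The Unc13b call was lost when both dentate gyrus replicate 2 and cortex replicate 1 were left out (adjusted p = 0.0532). The main isoform of excitatory forebrain synapses, Unc13a, overlapped between tissues with 95.5, 59.6 and 100.2 CPM in dentate gyrus, against 99.8 and 119 CPM in cortex (adjusted p = 0.332). Unc13c had 4.36, 25.9 and 5.48 CPM in dentate gyrus, against 40.3 and 35.4 CPM in cortex. Dentate gyrus replicate 2 stood well above the other two and close under cortex. In the main test Unc13c was not called with it (-1.67 ± 0.65, adjusted p = 0.0996) and passed without it (-2.96 ± 0.38, adjusted p = 0.000497). Unc13c passed in 5 of 15 alternatives, among them DESeq2 and limma voom with all libraries kept.

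RIM proteins tether Rab3 vesicles and calcium channels, and the 3 RIM genes of the set were called lower. Rims2 had 85.2, 124 and 105 CPM in dentate gyrus, against 215 and 221 CPM in cortex (-1.06 ± 0.18, adjusted p = 0.00211). Rims1 had 96.0, 82.1 and 89.8 CPM in dentate gyrus, against 128 and 151 CPM in cortex (-0.64 ± 0.17, adjusted p = 0.0225). Its call was lost without cortex replicate 2 (adjusted p = 0.155), dentate gyrus replicate 2 (0.0507) or dentate gyrus replicate 3 (0.0523). Rims3, a short RIM that lacks the Rab3-binding region, had 1, 2 and 0 counts in the dentate gyrus libraries, against 110 and 80 counts in the cortex libraries. The ratio of dentate gyrus to cortex was 0.0111, with an exact 95% interval of 0.00228 to 0.033 that covers counting error only; the call (adjusted p = 0.0113) was lost without cortex replicate 1 (0.0729) or 2 (0.0737), and leaving out dentate gyrus replicate 2, which held 2 of the 3 reads, kept it (0.0116).

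The large scaffolds differed less. Bsn had 609, 622 and 677 CPM in dentate gyrus, against 674 and 712 CPM in cortex, and overlapped between tissues (-0.12 ± 0.11, adjusted p = 0.468). Pclo, its relative Piccolo, had 1113, 1093 and 1134 CPM in dentate gyrus, against 1251 and 1516 CPM in cortex. Its change of -0.31 ± 0.10 just missed the threshold (adjusted p = 0.0580) and passed in 8 of 15 alternatives, among them without cortex replicate 1 (adjusted p = 0.0321). Rimbp2, which links RIM to calcium channels, was not called either (-0.15 ± 0.15, adjusted p = 0.548). Erc2, the ELKS-family scaffold also called CAST, had 819, 938 and 878 CPM in dentate gyrus, against 445 and 426 CPM in cortex (1.01 ± 0.11, adjusted p = 0.000177). Its paralogue Erc1 overlapped between tissues (328, 253 and 338 CPM in dentate gyrus, against 258 and 283 CPM in cortex; adjusted p = 0.473). Erc2 was the only member of this group higher in every dentate gyrus library than in cortex.

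Among proteins of the synaptic vesicle, Synpr changed most. It encodes synaptoporin, a synaptophysin relative known to be enriched in mossy fibre terminals, and lies at chr14:13284780-13616340 on the plus strand (GRCm38). It had 383, 416 and 458 CPM in dentate gyrus, against 40.1 and 46.7 CPM in cortex (3.27 ± 0.16, adjusted p = 1.69e-06). Syp, encoding synaptophysin, had 544, 397 and 414 CPM in dentate gyrus, against 629 and 651 CPM in cortex (-0.50 ± 0.15, adjusted p = 0.0341). Synpr counts were thus 0.705, 1.05 and 1.11 times those of Syp in the dentate gyrus libraries, against 0.0637 and 0.0717 times in the cortex libraries. The Syp call was lost without any of cortex replicate 1 (adjusted p = 0.111), cortex replicate 2 (0.124), dentate gyrus replicate 2 (0.0766) or dentate gyrus replicate 3 (0.0925), and 16.8% of its exonic bases overlap an antisense gene.

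Synapsins, which tether vesicles in the reserve pool, split in the same way. Syn1 had 2019, 1979 and 1905 CPM in dentate gyrus, against 4131 and 3463 CPM in cortex (-0.95 ± 0.09, adjusted p = 8.14e-05). Syn3, the paralogue known mainly from developing neurons, had 494, 447 and 369 CPM in dentate gyrus, against 127 and 121 CPM in cortex (1.81 ± 0.16, adjusted p = 3.98e-05). Both were without overlap. Syn2 was at 259.5, 293 and 263 CPM in dentate gyrus, against 269.6 and 264 CPM in cortex, overlapped and had no stable direction (0.03 ± 0.13, adjusted p = 0.916; -0.01 under upper quartile scaling). Of Syn3's exonic bases, 14.1% overlap Timp3 on the opposite strand.

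Of the SV2 glycoproteins, Sv2b carried most of the family and was far lower. It had 165, 497 and 318 CPM in dentate gyrus, against 1799 and 1595 CPM in cortex (-2.38 ± 0.34, adjusted p = 0.000837). Sv2c had 92.4, 66.5 and 69.8 CPM in dentate gyrus, against 41.6 and 35.6 CPM in cortex (0.98 ± 0.23, adjusted p = 0.0136), and its call was lost without cortex replicate 2 (adjusted p = 0.115). Sv2a, the binding site of the antiepileptic drug levetiracetam, had 39.7, 49.0 and 58.9 CPM in dentate gyrus, against 79.1 and 72.3 CPM in cortex. It was not called (-0.62 ± 0.22, adjusted p = 0.0781) but passed in 2 of 15 alternatives, DESeq2 and limma voom. The SV2 genes together averaged 452 ± 158 CPM in the dentate gyrus libraries and 1811 ± 153 CPM in the cortex libraries (SD). Sv2b spread widely among dentate gyrus libraries, with replicate 2 the highest.

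Rab3 GTPases mark docked vesicles and bind RIM, and the 3 Rab3 genes of the set were called lower. Rab3c had 183, 384 and 304 CPM in dentate gyrus, against 1470 and 1476 CPM in cortex (-2.34 ± 0.24, adjusted p = 0.000117). Rab3b had 9.27, 31.1 and 8.57 CPM in dentate gyrus, against 49.5 and 65.7 CPM in cortex (-1.83 ± 0.51, adjusted p = 0.0293). Rab3a had 134, 140.1 and 141 CPM in dentate gyrus, against 233 and 168 CPM in cortex (-0.54 ± 0.17, adjusted p = 0.0437). The Rab3c fall kept its call throughout, whereas Rab3a and Rab3b each lost theirs without several libraries. For Rab3a the adjusted p was 0.390 without cortex replicate 1 and 0.0755, 0.0711 and 0.0871 without dentate gyrus replicates 1, 2 and 3. For Rab3b it was 0.0649 and 0.140 without cortex replicates 1 and 2, and 0.0537 and 0.0637 without dentate gyrus replicates 1 and 3; without dentate gyrus replicate 2 the Rab3b change was -2.70. Rph3a, the Rab3 effector rabphilin, overlapped between tissues with 1031, 716 and 841 CPM in dentate gyrus, against 928 and 1066 CPM in cortex (adjusted p = 0.377).

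Doc2b, a high-affinity calcium sensor with paired C2 domains, had 638, 445 and 419.7 CPM in dentate gyrus, against 103 and 68.2 CPM in cortex (2.55 ± 0.24, adjusted p = 7.00e-05). Every dentate gyrus library was several times above cortex. Doc2a, its paralogue, was low throughout, with 1.63, 3.24 and 2.70 CPM in dentate gyrus, against 6.75 and 4.67 CPM in cortex, and was not called (adjusted p = 0.268). Ino80e on the opposite strand overlaps 39.4% of the exonic bases of Doc2a, so its reads may not all be its own.

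Of 14 synaptotagmins, 2 were higher, 7 lower and 5 not called. Syt1, the fast calcium sensor of forebrain neurons, led the family in both tissues, with 842, 861 and 929.7 CPM in dentate gyrus, against 1709.9 and 1644 CPM in cortex (-0.93 ± 0.09, adjusted p = 9.24e-05). Syt2, the fast sensor best known from hindbrain and fast-spiking inhibitory neurons, had 0.0552, 0 and 1.92 CPM in dentate gyrus, against 14.1 and 10.002 CPM in cortex. Despite this separation it was not called (adjusted p = 0.0553). It passed in 5 of 15 alternatives, among them without dentate gyrus replicate 3 (adjusted p = 0.000883) and with limma voom. Syt7, the slow high-affinity sensor linked to facilitation, had 313, 252 and 269.9 CPM in dentate gyrus, against 235 and 246 CPM in cortex, and was not called (0.21 ± 0.14, adjusted p = 0.337). Syt9 had 0, 4.97 and 0.117 CPM in dentate gyrus, against 8.78 and 6.39 CPM in cortex. It was not called (adjusted p = 0.380) but passed in 2 of 15 alternatives. These were limma voom and leaving out dentate gyrus replicate 2 (adjusted p = 0.00458), the library in which nearly all of its dentate gyrus reads lay.

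Of the synaptotagmins that do not bind calcium in the usual way, Syt4, Syt11, Syt12 and Syt16 were called lower and Syt13 was not called. Syt4 had 121, 195 and 181 CPM in dentate gyrus, against 340.3 and 346 CPM in cortex (-1.05 ± 0.19, adjusted p = 0.00354). Syt11 had 293, 313 and 276 CPM in dentate gyrus, against 527 and 468 CPM in cortex (-0.76 ± 0.12, adjusted p = 0.00158). Both calls held under each alternative. Syt12 had 4.25, 2.22 and 4.34 CPM in dentate gyrus, against 18.5 and 8.85 CPM in cortex (-1.92 ± 0.55, adjusted p = 0.0325), and was lost without cortex replicate 1 (-1.29, adjusted p = 0.336), dentate gyrus replicate 2 (0.0676) or dentate gyrus replicate 3 (0.0530). Syt16 had 63.9, 68.5 and 80.9 CPM in dentate gyrus, against 104 and 150.3 CPM in cortex (-0.84 ± 0.21, adjusted p = 0.0170), lost without cortex replicate 2 (adjusted p = 0.177). Syt13 overlapped between tissues (adjusted p = 0.719).

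Of Syt3, Syt5, Syt6 and Syt10, Syt10 was called higher, Syt3 and Syt6 were called lower, and Syt5 was not called. Syt10 had 16.6, 18.6 and 27.4 CPM in dentate gyrus, against 4.67 and 6.72 CPM in cortex (1.87 ± 0.42, adjusted p = 0.0106), lost without cortex replicate 1 (adjusted p = 0.0733). Syt3 had 10.5, 8.83 and 10.3 CPM in dentate gyrus, against 25.015 and 23.9 CPM in cortex (-1.31 ± 0.33, adjusted p = 0.0192), lost without cortex replicate 1 (adjusted p = 0.105) or 2 (0.0811). Syt6 had 0.165, 0.799 and 0.196 CPM in dentate gyrus, against 4.19 and 13.5 CPM in cortex (-4.53 ± 0.96, adjusted p = 0.00816). The cortex libraries lay far apart for Syt6. With dentate gyrus replicate 2 left out its change was -5.60, and with cortex replicate 1 left out -5.14. It was -3.47 and no longer called without cortex replicate 2 (adjusted p = 0.177). Syt6 also shares a stretch of 508 bases at over 97% identity with Atg4a, so its count is uncertain. Syt5 was not called (-0.57 ± 0.19, adjusted p = 0.0630) but passed in 3 of 15 alternatives, among them DESeq2 and limma voom. Syt17, an atypical member without a membrane span, had 111, 132 and 85.3 CPM in dentate gyrus, against 43.8 and 68.9 CPM in cortex (0.96 ± 0.26, adjusted p = 0.0259), lost without cortex replicate 1 (adjusted p = 0.174) or dentate gyrus replicate 2 (0.0629).

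In 6 of 15 families with several members, at least 1 paralogue was called higher and another lower: complexins, synapsins, SV2, synaptophysin and synaptoporin, the SNAP adaptors and synaptotagmins. This count depended on single libraries. It was 6, 5 and 5 without dentate gyrus replicates 1, 2 and 3, and 3 without either cortex library: complexins, synapsins and SV2 without cortex replicate 1, and complexins, synapsins and synaptotagmins without cortex replicate 2. Without both dentate gyrus replicate 2 and cortex replicate 1, it was 2, the complexins and synapsins. Each paralogue's share of its family was computed from CPM per kilobase of exon. Cplx2 made up 90.2%, 86.8% and 88.9% of the complexins in the dentate gyrus libraries, against 34.2% and 36.2% in the cortex libraries. Synpr made up 28.0%, 36.7% and 37.9% of its pair in dentate gyrus, against 3.40% and 3.81% in cortex. Sv2c made up 25.3%, 8.93% and 12.4% of the SV2 genes in dentate gyrus, against 1.82% and 1.75% in cortex; the difference of the means, 13.8 percentage points, was 8.90 without dentate gyrus replicate 1. None of these shares overlapped between tissues, and for each the exact permutation test gave a two-sided p = 0.2, the smallest that 10 placements of the labels allow.

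Shares also moved in other families and for other paralogues. Rab3a averaged 69.2% ± 8.19 of the Rab3 genes in dentate gyrus and 39.2% ± 6.08 in cortex (SD, n = 3 and n = 2), because Rab3c fell more than Rab3a. Erc2 averaged 82.7% ± 2.98 of the ELKS genes in dentate gyrus and 72.9% ± 1.87 in cortex. Napa averaged 19.3% ± 3.38 of its pair in dentate gyrus and 8.47% ± 0.945 in cortex, and Syn3 averaged 5.29% ± 0.595 of the synapsins in dentate gyrus and 0.847% ± 0.0701 in cortex. These were all without overlap between tissues. Which paralogue led a family depended on the length used. With all exons the lead differed between tissues in the complexins, RIM and Rab3 genes and was the same in the other 12 families. For the RIM genes this rested on the means: Rims2 made up 38.6%, 51.7% and 45.3% in the dentate gyrus libraries, against 53.9% and 50.5% in the cortex libraries, so it led in dentate gyrus replicate 2 as in cortex and the tissues overlapped. With coding length alone it was the same in all 15: Cplx2 then led the complexins in cortex as well, with 55.0%, and Rab3c led the Rab3 genes in dentate gyrus with 62.5%.

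**Figure D3:**
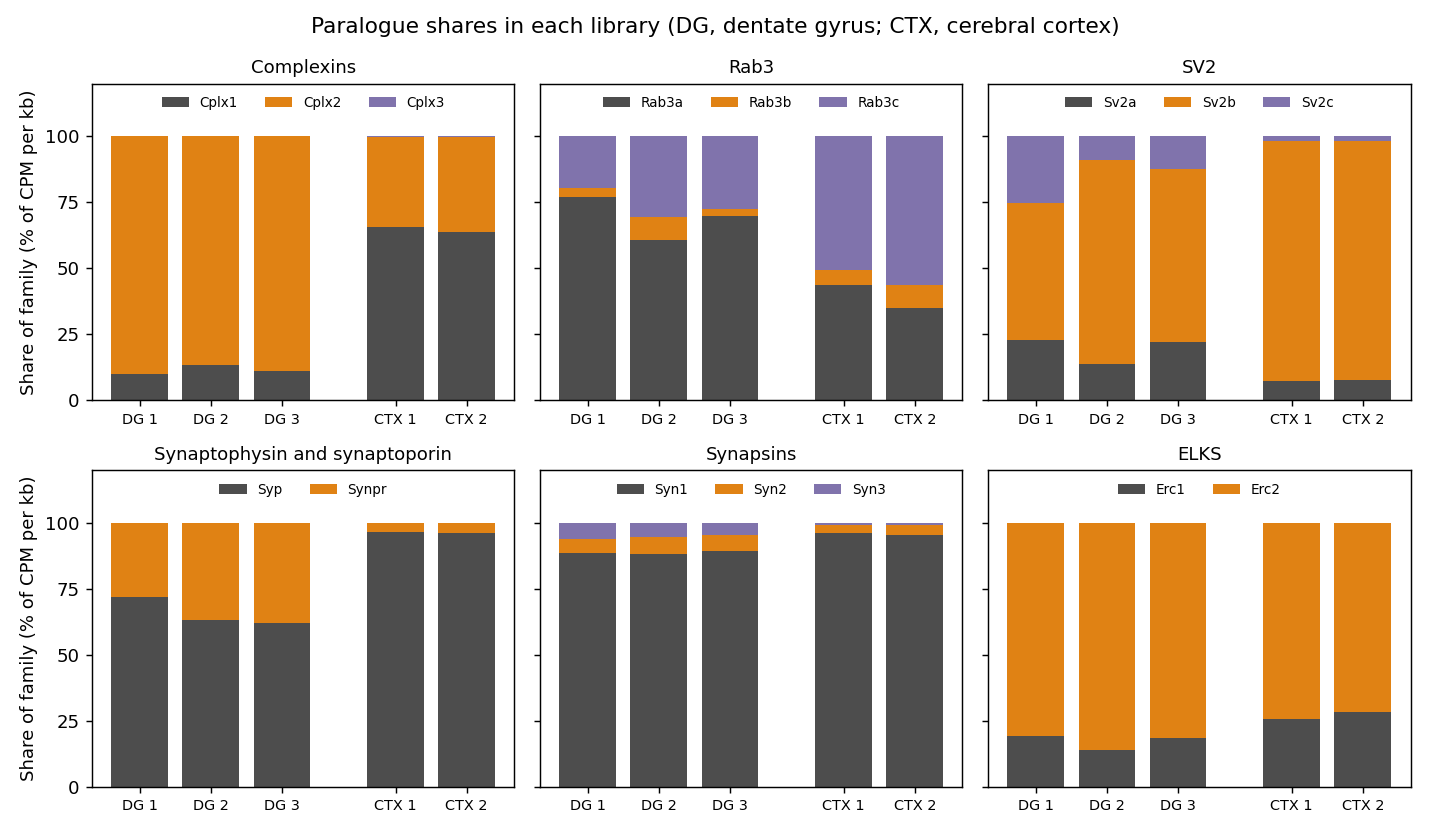
Share of each paralogue in the summed CPM per kilobase of exon of its family (vertical axis, %), 1 stacked bar per library, dentate gyrus libraries left of cortex. Cplx2 fills 86.8% to 90.2% of the complexin bar in dentate gyrus and 34.2% to 36.2% in cortex, and the Synpr, Sv2c and Syn3 segments are wider in each dentate gyrus library.

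Ordered by CPM per kilobase, Snap25 stood first in both tissues. In dentate gyrus Snap25 was followed by Cplx2 (882 ± 152 CPM per kb), Vamp2 (807 ± 65.1), Syn1 (597 ± 17.4) and Stxbp6 (SD, n = 3). The first pair after Snap25 did not differ beyond their spread. In cortex it was followed by Syn1 (1151 ± 143), Vamp2 (1044 ± 79.7), Cplx1 (428 ± 1.13) and Cplx2 (233 ± 15.2, SD, n = 2). The means of Syn1 and Vamp2 there differed by less than the SD of Syn1, although Syn1 was above Vamp2 per kilobase in each cortex library. Doc2b was 9th in dentate gyrus and 28th in cortex, whereas Sv2b was 22nd in dentate gyrus and 7th in cortex.

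Some members differed as much among dentate gyrus libraries as other members did between tissues. Replicate 2 was the highest dentate gyrus library for 14 of the 24 members called lower and for 2 of the 12 called higher. The same count was not made over all genes tested, so these numbers cannot show a trait particular to the members. Sv2b, Rab3c, Rab3b, Unc13c, Stx1a and Syt9, chosen after their values were seen, were all highest in replicate 2. Of 12 layer 5 markers, 8 were highest there, 3 in replicate 1 and 1 in replicate 3; Fezf2, Ldb2, Tshz2 and Deptor are plotted and were likewise chosen after their values were seen. Ldb2 was at 4.52, 51.5 and 16.6 CPM in dentate gyrus, against 221 and 195 CPM in cortex. Some markers of other cells were also highest in replicate 2. Of 12 markers of mossy cells and CA fields with counts, 7 were highest there. Nnat, one of the 7, had 5.30, 90.03 and 35.8 CPM in dentate gyrus, against 77.6 and 56.4 CPM in cortex. Replicate 2 was also highest for 4 of 8 vascular, 6 of 16 GABAergic and 1 of 10 astrocyte markers. Replicate 3 was highest for 7 GABAergic and 7 astrocyte markers. The fibroblast gene Dcn, picked from the vascular markers, was at 1.71, 114 and 10.5 CPM in dentate gyrus, against 35.2 and 25.8 CPM in cortex. Col1a1, of the same list, was at 0.552, 0.621 and 1.17 CPM in dentate gyrus, against 0.199 and 2.30 CPM in cortex. Of the 12 mossy cell and CA markers tested, 3 were higher and 4 lower, and all those listed summed to 355 to 525 CPM in dentate gyrus, against 528 to 539 CPM in cortex. Of 10 astrocyte markers 5 were lower and 0 higher in dentate gyrus, with a summed level of 656 to 815 CPM there, against 1217 to 1235 CPM in cortex. Of 15 GABAergic markers tested 8 were lower and 2 higher in dentate gyrus, and their summed level was 628 to 695 CPM there, against 2066 to 2180 CPM in cortex; Vip was at 0 in dentate gyrus replicate 3. Pvalb, a marker of fast-spiking neurons, had 0.0276, 0.266 and 0.431 CPM in dentate gyrus, against 27.5 and 11.6 CPM in cortex. The 2 GABAergic markers called higher were Gad1 and Adarb2. Gad1 had 71.6, 57.2 and 64.7 CPM in dentate gyrus, against 26.6 and 41.0 CPM in cortex. Adarb2 had 48.5, 69.9 and 82.4 CPM in dentate gyrus, against 2.85 and 6.60 CPM in cortex. The highest means of this list were those of Cck (325 CPM in dentate gyrus, 1106 in cortex) and Sst (88.8 and 670). The part of layer 5, GABAergic, mossy and CA cells or astrocytes in the member changes was not tested. Without dentate gyrus replicate 2, 30 of the 36 member calls remained, and Sv2b, Rab3c and Stx1a were among them. Without both it and cortex replicate 1, 22 remained. The 14 calls lost were those of Napb, Rab3a, Rims1, Rims3, Snap47, Syp, Syt3, Syt10, Syt12, Syt17, Vamp2, Unc13b, Stxbp5l and Sv2c. Of these, Unc13b, Stxbp5l (adjusted p = 0.0546) and Sv2c (adjusted p = 0.0534) kept their call with either library left out alone.

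**Figure D4:**
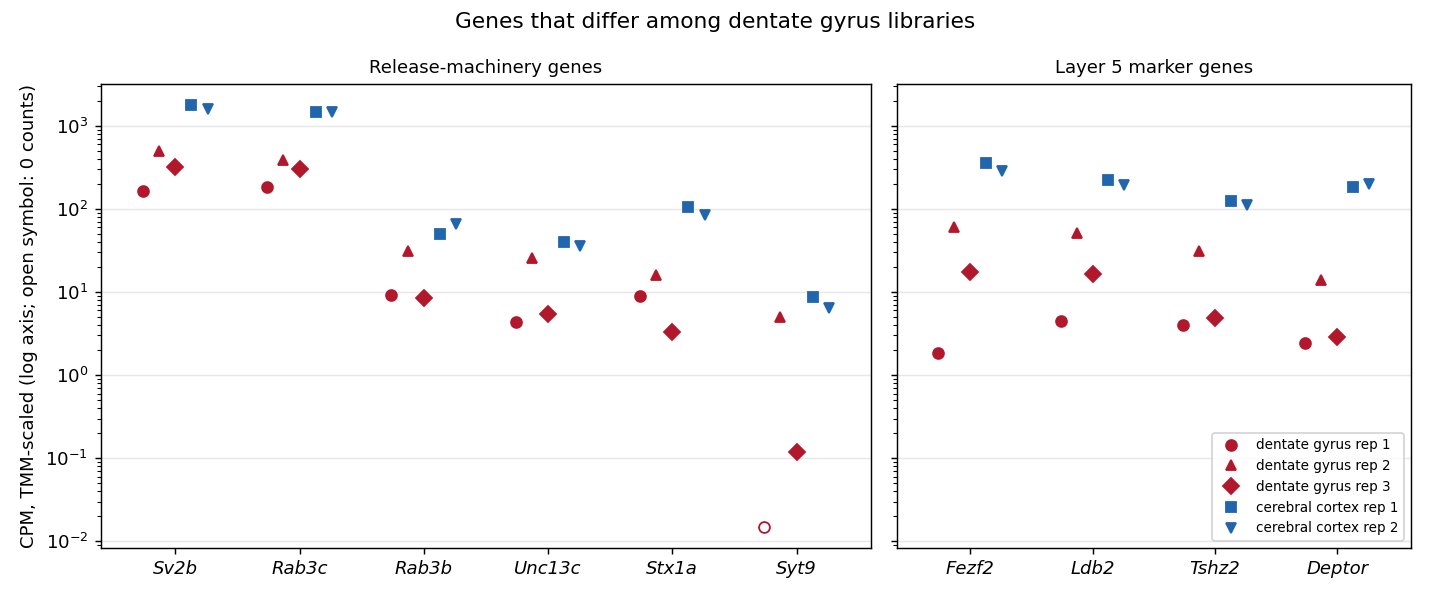
CPM (TMM-scaled, log axis) of 6 release-machinery genes (left) and 4 layer 5 marker genes (right) in each library; red symbols are dentate gyrus replicates 1 to 3 and blue symbols cortex replicates 1 and 2, with an open symbol for 0 counts. Dentate gyrus replicate 2 (triangle) is the highest dentate gyrus library for each gene and stays below both cortex libraries.

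Of 60 other release genes, 58 were listed and 49 tested; 9 were higher, 16 lower and 24 not called in dentate gyrus, with a median log2 change of -0.30. Lin7c, an adaptor of the CASK and Mint complex, had 764, 874 and 791 CPM in dentate gyrus, against 103 and 121 CPM in cortex (2.86 ± 0.14, adjusted p = 1.64e-06). Ppfia2, the scaffold liprin-alpha-2, had 1260.3, 1165 and 1272 CPM in dentate gyrus, against 334 and 378 CPM in cortex (1.79 ± 0.11, adjusted p = 6.75e-06). Both were higher in every dentate gyrus library. Syngr1, a vesicle protein related to synaptophysin, had 62.8, 76.4 and 59.5 CPM in dentate gyrus, against 284 and 295 CPM in cortex (-2.13 ± 0.16, adjusted p = 1.83e-05). Its libraries were as clearly separated in the other direction.

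Of 32 genes of vesicle endocytosis and recycling, 2 were higher, 12 lower and 18 not called, with a median log2 change of -0.02. Ston2, an adaptor that sorts synaptotagmin during endocytosis, had 96.3, 119 and 130.5 CPM in dentate gyrus, against 16.7 and 13.9 CPM in cortex (2.91 ± 0.23, adjusted p = 2.67e-05). Epn2, a clathrin adaptor, was also higher (1.35 ± 0.19, adjusted p = 0.00084). Dnm1, the dynamin of synaptic vesicle fission, had 446, 399 and 419.6 CPM in dentate gyrus, against 794 and 818 CPM in cortex (-0.94 ± 0.11, adjusted p = 0.000221). Ap2b1, a subunit of the AP-2 clathrin adaptor, was lower by a like amount (-1.03 ± 0.14, adjusted p = 0.000709). Libraries of the tissues did not overlap for any of these 4 genes. Without cortex replicate 1, 3 other release genes were called higher and 10 lower, and 5 recycling genes lower.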

How the data were processed

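Polysome-bound RNA was sequenced from 3 dentate gyrus and 2 cerebral cortex immunopurifications. For each library the authors deposited unnormalized whole-number counts by gene symbol. STAR 2.0.0e, HTSeq and the mm10 build are named in the submitters' processing notes. Not given in the sources used here are the HTSeq version, the annotation, the strand setting and how reads on overlapping genes were treated. In 11 members at least 5% of exonic bases were shared with another gene. Beside those given above, these include Syt12 (17.2%), Syt4 (14.5%), Erc1 (11.8%), Rab3b (9%) and Doc2b (5.53%). Rows without a gene name entered neither depth nor tests. Reads outside features made up 13.26%, 13.52% and 14.83% of counted reads in the dentate gyrus libraries, against 10.59% and 11% in the cortex libraries. Reads placed more than once made up 25.13%, 25.44% and 25.03% in dentate gyrus, against 29.95% and 31.76% in cortex. The tissues did not overlap in either measure, and the part of these differences in the gene changes was not tested.

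The counts were tested with edgeR 4.0.16 in R 4.3.3: TMM scaling, filterByExpr, a quasi-likelihood F test on tissue alone, dentate gyrus minus cortex, and Benjamini-Hochberg adjustment over 14136 genes, with calls at an adjusted p under 0.05. Adjusted p-values in the text come from this test. A floor of 3 counts corresponds to 0.0814 to 0.133 CPM in these libraries. Paralogue shares used CPM per kilobase of the union of GENCODE M21 exons on GRCm38 and an exact permutation test over libraries. Alternatives were 3 other scalings, 2 other filters, DESeq2 1.42.0, limma voom 3.58.1, a robust dispersion, a replicate block, and leaving out libraries. The procedure was tested on simulated data.

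Any member could be named; of the other release genes and the recycling genes, up to 4 with the smallest adjusted p were named, and markers only as values beside a result. The members and lists were chosen with earlier results of these data known. Of the other release genes, 3 are named and the rest are not reported singly here.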

Additional observations from a re-analysis of the deposited data

How the results depend on the processing

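All values are for dentate gyrus against cortex. Other scalings, filters and tools kept all 36 member calls and called 36 to 43 members; DESeq2 called 5 recycling genes higher, against 2 with edgeR. Whether libraries of the tissues with the same replicate number are paired is not stated. Deviations of same-numbered libraries from their tissue means correlated at -0.0111 and -0.0107. With only 2 cortex libraries the cortex deviations mirror each other, so these values cannot show whether the libraries are paired. With a replicate block 2237 genes and 30 members were called, 29 of them shared. The calls of Rab3a, Rims1, Rims3, Syp, Syt12, Syt3 and Vamp2 were then lost. Leaving out 1 library at a time gave 1886 to 2775 called genes against 3009, 16 to 23 members lower against 24, 3 to 6 other release genes higher and 9 to 14 lower, and 5 to 10 recycling genes lower. With both cortex replicate 1 and dentate gyrus replicate 2 left out these were 1578 genes, 15 members lower, 2 other release genes higher and 10 lower, and 3 recycling genes lower. A lone cortex library is assumed there to vary like the other group, and fewer libraries enter these fits; no other cause of the lost calls was tested. Syn2 turned from 0.03 to -0.0085 under upper quartile scaling, to -0.0019 under total counts, to between -0.0451 and 0.0468 with 1 library left out and to -0.0101 without both. The Rab3b share difference of -2.37 percentage points became 0.0607 with coding length and 0.109 with raw counts. Those of Syt5 (0.333) and Syt16 (-0.358) ran from -0.116 to 0.841 and from -0.844 to 0.127 with 1 library left out. Low genes such as Rims3, Syt2 and Cplx3 rest on few counts in dentate gyrus, so the size of their change is poorly determined.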
